A study of Homo sapiens with 59 samples.

Results

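The 10 genes described here make fatty acids and put double bonds into them: SREBF1, ACSS2, ACLY, ACACA, FASN, ELOVL6, SCD, ELOVL5, FADS1 and FADS2. They were chosen by name, as 1 transcription factor and 9 enzymes of 1 pathway. No measured value entered that rule, but earlier results of these data were known when the genes were chosen. All 10 were among the 60675 genes of the deposited table, and all 10 were among the 18568 genes with enough counts to test. The cells were A549, a line long established from a human lung carcinoma, and bulk RNA was sequenced once they had spent 24 h in an herbal extract or in vehicle. The 59 libraries form 25 groups, namely 8 extracts at 3 doses each and the vehicle.

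Every extract was made with 70% ethanol. Doses are called high, medium and low. They were 110, 22 and 4.4 µg/mL for Coptidis Rhizoma, and for Bupleuri Radix they were 190, 38 and 7.6 µg/mL. The high dose was 500, the medium 100 and the low 20 µg/mL for Aconiti Lateralis Radix Preparata, Cimicifugae Rhizoma, Citri Unshius Pericarpium, Zizyphi Fructus and both preparations named -tang, which are Banhasasim-tang and Yijung-tang. Below, each is called by the first part of its name. Coptidis, Zizyphi and Yijung had 2 libraries per dose. Citri, Cimicifugae and Bupleuri had 3 per dose, Aconiti had 3 at the high dose, 2 at the medium and 3 at the low, and Banhasasim had 1 per dose. The 3 vehicle libraries were labelled 0.1% DMSO, whereas the text on the series gives 2% for the vehicle, and the difference could not be settled. Per that text, an extract that inhibited the cells below 500 µg/mL was given at its IC20 concentration and at dilutions of it, so high doses of different extracts are not equal doses.

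SREBP-1, the protein of SREBF1, is made as a membrane-bound precursor. It is carried from the endoplasmic reticulum to the Golgi by the escort protein SCAP, is cut there, and its released part enters the nucleus and switches on genes of fatty acid synthesis. INSIG proteins hold SCAP back when sterols are plentiful, and the sister factor SREBP-2, from SREBF2, acts mainly on cholesterol synthesis and uptake genes. ACSS2 and ACLY make acetyl-CoA from acetate and citrate, ACACA turns it into malonyl-CoA, and FASN builds palmitate from both. ELOVL6 lengthens palmitate to stearate, and SCD places the first double bond to give oleate. ELOVL5 lengthens polyunsaturated chains, and FADS2 and FADS1 desaturate the essential fatty acids on the way to arachidonate and its relatives. In the lung these enzymes are known for supplying the lipids of surfactant, and many carcinoma lines run the pathway at a high rate.

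Expected counts were scaled to CPM, with library totals adjusted by TMM factors, and fold changes were fitted with edgeR over all genes. A gene is called where its adjusted p was below 0.05, and plus or minus is an SD beside a mean level and an SE beside a log2 fold change. Below, members at an unadjusted p below 0.05, members called by DESeq2 and libraries that did not overlap stand without the share of all genes. They describe a comparison and are not results about the members. All 51 calls over all comparisons had libraries that did not overlap between the groups compared. The libraries held 17214755 to 39751161 expected counts, and the thinnest member, ACSS2, had 265 to 822 counts in a library. In 4 libraries (Citri high replicate 3, Citri medium replicate 3, Cimicifugae medium replicate 2 and Cimicifugae low replicate 2) antisense transcripts without a symbol summed to 1265 to 1516 CPM, against at most 1119 CPM in the others, and each count of called members below was also made without these 4. The cells' epithelial label was checked with 8 markers: KRT8 at 3442 to 3592 CPM and KRT18 at 2581 to 2854 CPM in vehicle were abundant, CDH1 and EPCAM were low, and the alveolar markers NKX2-1, SFTPB and SFTPC were at or near 0. Of 6 markers of other cell types, PTPRC, CD3E, LYZ, PECAM1 and ALB were at or near 0 and COL1A1 stood at 32.0 to 33.2 CPM in vehicle. As these are bulk samples, fewer cells of a type and less RNA per cell cannot be told apart.

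The promoters of SCD, FADS1 and FADS2 are shown because these desaturases varied most over the group means below, and that of the elongase ELOVL5 because it holds an E-box. RefSeq's table of promoters on GRCh38.p14 held 9 of the 10 members, with FASN the exception, and each entry runs from 250 bases before the start to 50 bases after it. Both strands were searched for TCACNCCAC (the core of the sterol regulatory element that SREBP binds), CACGTG (an E-box, which SREBP-1 can also bind), CCAAT (bound by NF-Y) and GGGCGG (a GC box, bound by SP1). Capitals mark every match to these 4 motifs, on either strand, and N stands for any base.
SCD, chr10:100346983-100347282, plus strand: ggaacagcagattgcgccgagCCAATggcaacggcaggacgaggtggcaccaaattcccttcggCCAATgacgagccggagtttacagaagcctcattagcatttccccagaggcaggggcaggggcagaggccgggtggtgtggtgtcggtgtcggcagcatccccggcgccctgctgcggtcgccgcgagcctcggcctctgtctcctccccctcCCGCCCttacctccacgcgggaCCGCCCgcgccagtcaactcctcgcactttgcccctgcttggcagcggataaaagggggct
FADS1, chr11:61816954-61817253, minus strand: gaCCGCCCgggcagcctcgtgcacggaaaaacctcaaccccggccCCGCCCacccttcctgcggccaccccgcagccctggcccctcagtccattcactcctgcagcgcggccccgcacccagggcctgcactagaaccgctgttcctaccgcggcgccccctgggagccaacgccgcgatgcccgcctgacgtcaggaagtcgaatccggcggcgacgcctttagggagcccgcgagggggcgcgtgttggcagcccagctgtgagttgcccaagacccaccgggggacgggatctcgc
FADS2, chr11:61816154-61816453, plus strand: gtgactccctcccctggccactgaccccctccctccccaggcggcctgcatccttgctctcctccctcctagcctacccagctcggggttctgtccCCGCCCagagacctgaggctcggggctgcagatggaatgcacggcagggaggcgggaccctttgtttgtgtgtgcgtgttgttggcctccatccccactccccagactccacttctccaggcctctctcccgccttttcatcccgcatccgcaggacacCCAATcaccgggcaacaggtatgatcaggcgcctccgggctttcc
ELOVL5, chr6:53348901-53349200, minus strand: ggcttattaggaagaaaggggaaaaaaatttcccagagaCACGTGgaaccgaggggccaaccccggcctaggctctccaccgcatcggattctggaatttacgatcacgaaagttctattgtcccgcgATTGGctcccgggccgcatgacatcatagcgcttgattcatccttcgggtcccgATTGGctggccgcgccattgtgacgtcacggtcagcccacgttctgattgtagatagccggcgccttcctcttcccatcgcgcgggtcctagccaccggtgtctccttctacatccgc

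The SCD window held 2 CCAAT boxes and 2 GC boxes, and the FADS1 window held 2 GC boxes. The FADS2 window shown, the second of its 2 entries, held 1 CCAAT box and 1 GC box, while ELOVL5 had 1 E-box and 2 CCAAT boxes. None of the 9 members' windows held the sterol element core, which 1.13% of the 35116 promoters in the table hold. The E-box was in 7.26% of all promoters, the CCAAT box in 34.6% and the GC box in 45%, so the last pair of motifs is common. A match or a missing match describes these letters and says nothing of binding in these cells.

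Levels of different genes were set against each other only per length, as CPM per kilobase of the longest transcript marked as principal in GENCODE 29. In vehicle, ACLY averaged 171 ± 4.94 and SCD 169 ± 6.66 CPM per kilobase, and their libraries overlapped. FADS2 followed at 111 ± 3.80, then FADS1 at 67.7 ± 2.52, FASN at 62.0 ± 2.43 and ELOVL5 at 56.1 ± 1.64 CPM per kilobase. SREBF1 stood at 37.8 ± 0.27 and ACACA at 23.9 ± 1.65 CPM per kilobase. ACSS2, at 5.67 ± 0.19, and ELOVL6, at 5.16 ± 0.30, came last, and their ranges did not overlap (all SD, n = 3). With the length of all annotated exons instead, a length chosen after seeing the data, FADS2 stood below FASN and ELOVL5, at 36.4, 56.7 and 41.6 CPM per kilobase. ACLY then stood at 143 below SCD at 169, and ACSS2 at 3.23 below ELOVL6 at 4.57 CPM per kilobase, so the order, its ends included, depends on the length assumed. By GENCODE 29 on GRCh38, 4 members lie on the minus strand of chromosome 17: SREBF1 at 17810399 to 17837002, ACACA at 37084988 to 37406818, ACLY at 41866908 to 41930542 and FASN at 82078333 to 82098332. SCD lies on chromosome 10 (100347124 to 100364834), ELOVL6 on chromosome 4 (110045846 to 110199199), ELOVL5 on chromosome 6 (53267398 to 53349179) and ACSS2 on chromosome 20 (34872146 to 34927962). All 10 are protein-coding genes. On chromosome 11, FADS1 (61799625 to 61829318, minus strand) and FADS2 (61792980 to 61867354, plus strand) overlap by 490 exon bases, or 4.79% of the FADS1 exons. No source used here gives the strand setting of the authors' counting, so a small part of either count could belong to the other gene. SREBF1 shares 556 exon bases, or 6.92% of its exons, with RAI1 on the opposite strand, and FADS2 shares 49 with FEN1 on its own strand.

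Among the 210 tests of a member in a dose against vehicle, 24 were called, 10 higher and 14 lower. They fell in 6 of the 21 dose comparisons, all of which share the 3 vehicle libraries. Yijung high raised 6 members, Coptidis high lowered 6, Coptidis medium lowered 1, and Aconiti medium lowered 7. Cimicifugae high and Bupleuri high raised 2 each. FADS2 was called in 6 of these comparisons, FADS1 in 5, SCD in 3, and SREBF1, FASN and ELOVL5 in 2. ACLY, ACACA, ELOVL6 and ACSS2 were each called once. Of the 24 extract groups, the mean lay above the vehicle mean in 20 for SREBF1, ELOVL6 and FADS1 and in 18 for FADS2. It lay above in 17 for ACACA and SCD, 14 for ACSS2, 13 for FASN, 9 for ACLY and 3 for ELOVL5. The part of any difference shared by the extract groups in the calls was not tested.

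**Figure D1:**
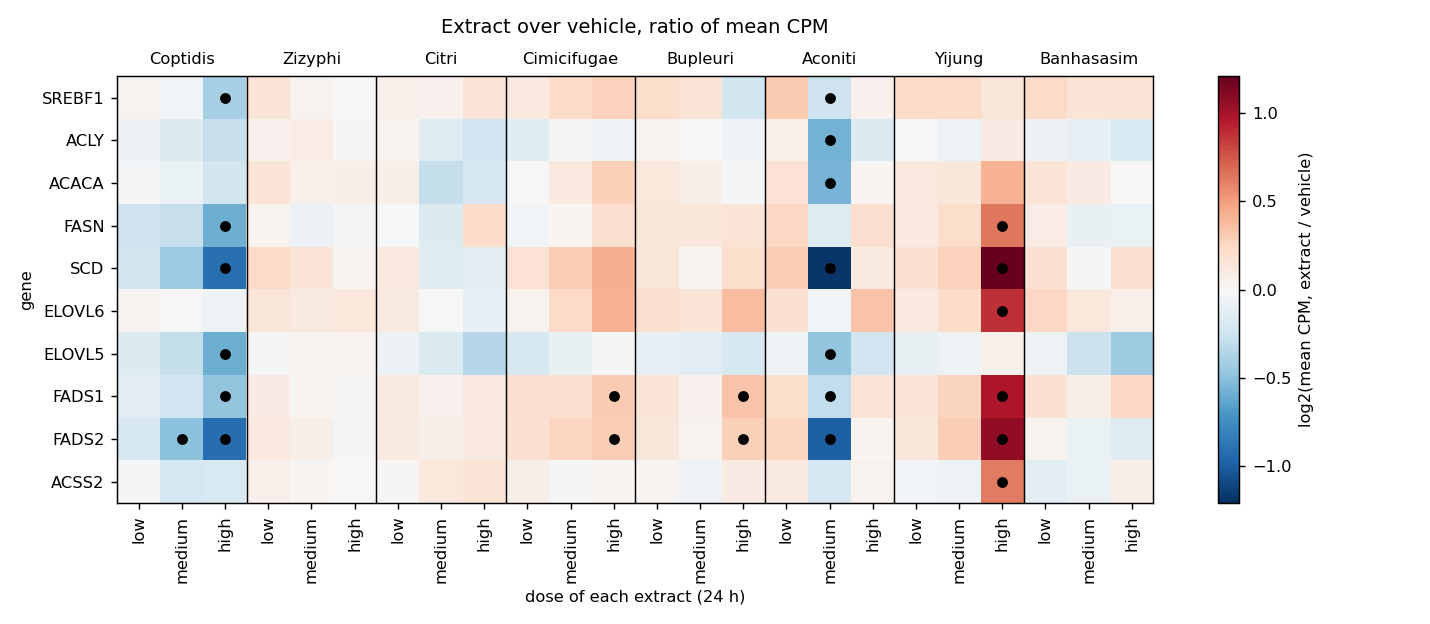
Log2 ratio of the mean CPM of each extract group to the vehicle mean, for the 10 genes (rows) and 24 extract groups (columns, low to high dose within each extract); black dots mark adjusted p below 0.05, and Banhasasim, with 1 library per dose, was not tested. Blue columns stand at Coptidis high and Aconiti medium, and the deepest red column at Yijung high, where SCD reached 1.21 and FADS2 1.07.

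Yijung at 500 µg/mL raised the 3 desaturases, the palmitate elongase, FASN and ACSS2, with 6 of 10 members called higher and none lower, where 0.781% of all tested genes were called higher. SCD was 2.31-fold and FADS2 2.11-fold its vehicle level, and SREBF1 itself was not called. Without the 4 libraries with high antisense counts 7 members were called higher, the further one being ACACA, where 4.46% of all genes were called higher. Leaving out these 4 gave more calls over all genes in 27 of the 32 comparisons made, so each count of members without them stands beside its own share.

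Of the desaturases, SCD stood at 2111 and 2082 CPM in the Yijung high libraries, against 936, 921 and 868 CPM in vehicle. Its log2 fold change was 1.21 ± 0.19 with an adjusted p of 9.64e-05. FADS2 had 864 and 828 CPM in the Yijung high libraries, against 417, 390.1 and 398 CPM in vehicle, a log2 fold change of 1.07 ± 0.07 (adjusted p = 1.07e-13). Both genes were higher in each extract library than in any vehicle library. FADS1 had 590.1 and 614 CPM with the extract, against 319, 304 and 296 CPM in vehicle, a log2 fold change of 0.98 ± 0.07 (adjusted p = 4.1e-12). The 2 genes of the chromosome 11 pair moved by similar amounts, and the difference between them was not tested.

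ELOVL6, which makes stearate for SCD, had 62.4 and 60.1 CPM in the Yijung high libraries, against 34.8, 34.0 and 31.2 CPM in vehicle, and rose by 0.88 ± 0.12 on the log2 scale (adjusted p = 1.08e-05). ACSS2, which makes acetyl-CoA from acetate, had 27.9 and 25.9 CPM, against 16.9, 17.3 and 18.03 CPM in vehicle, and rose by 0.63 ± 0.09 (adjusted p = 6.21e-06). In the libraries of all other groups ACSS2 stayed between 14.5 and 21.5 CPM. FASN had 853 and 799 CPM with the extract, against 551, 532 and 509 CPM in vehicle, a log2 fold change of 0.64 ± 0.13 (adjusted p = 0.00354). The FASN call was lost when Yijung high replicate 1 was left out.

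The other 4 members gave smaller values and were not called. ACACA, the malonyl-CoA step, averaged 306 CPM with the extract against 228 CPM in vehicle, a log2 fold change of 0.42 ± 0.18 (adjusted p = 0.319, and 0.00464 without the 4 libraries). ACLY had a log2 fold change of 0.10 ± 0.16 and ELOVL5 one of 0.06 ± 0.17. SREBF1 stood at 182 and 168 CPM in the Yijung high libraries, against 157, 159 and 158 CPM in vehicle, a log2 fold change of 0.15 ± 0.08 (adjusted p = 0.514). Whether SREBF1 differed from the called enzymes in its change was not tested, and gene-level counts do not tell its 2 main isoforms apart.

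The step between the doses of Yijung was late. SCD averaged 908 CPM in vehicle, 1033 at the low dose, 1103 at the medium and 2096 at the high dose. FADS2 ran through 402, 443, 493 and 846 CPM in the same order, and ACSS2 through 17.4, 17.04, 16.7 and 26.9 CPM. Neither the low nor the medium dose had a called member against vehicle with edgeR, where 0% and 0.0108% of all genes were called. An unadjusted p below 0.05 was reached by 2 members at the low and 3 at the medium dose, and DESeq2 called 0 and 1. Against the low dose, a comparison free of the vehicle, Yijung high raised 5 members, where 0.285% of genes were called higher: SCD by 1.02 ± 0.21 (adjusted p = 0.00874), FADS2 by 0.93 ± 0.08 (2.15e-10), FADS1 by 0.82 ± 0.08 (9.23e-09), ELOVL6 by 0.76 ± 0.14 (0.000939) and ACSS2 by 0.66 ± 0.10 (2.42e-05) on the log2 scale. The SCD call against the low dose was lost whichever of the 4 libraries was left out.

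**Figure D2:**
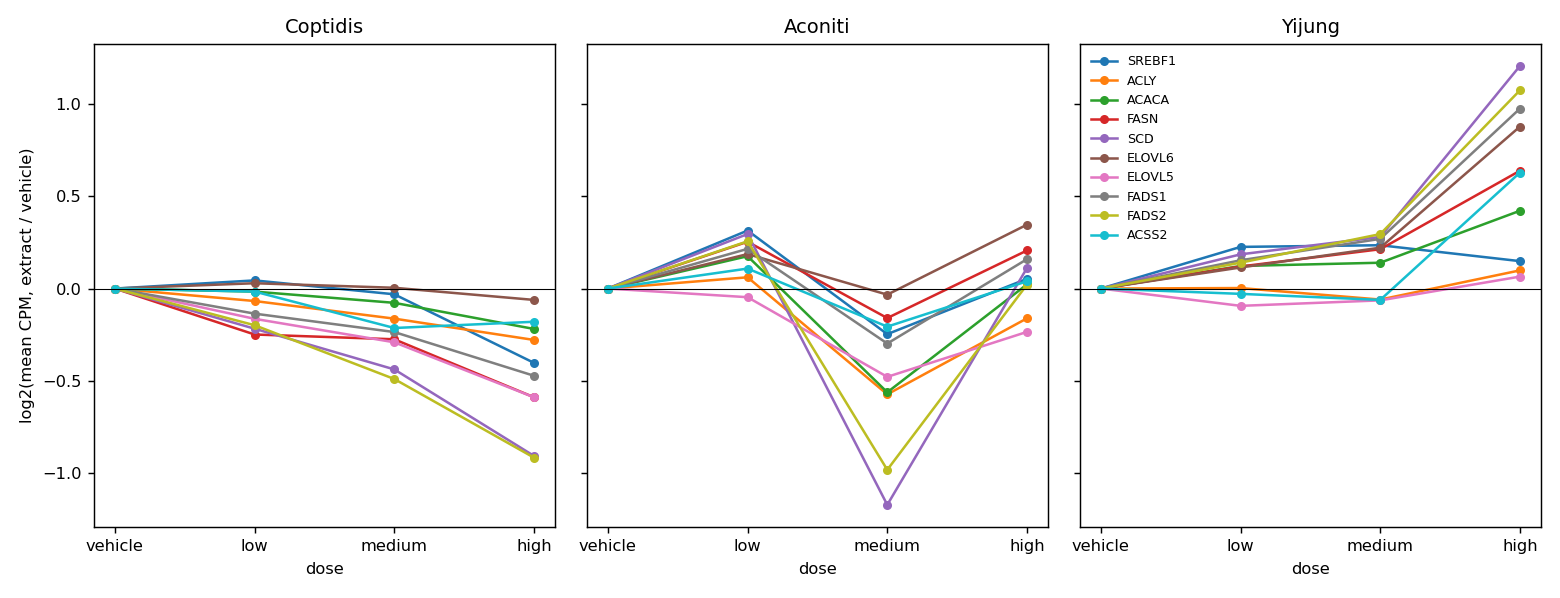
Log2 ratio of the mean CPM at each dose to the vehicle mean (y) for the 10 genes in Coptidis, Aconiti and Yijung, from vehicle to the high dose (x). Most Coptidis lines descend with dose, Aconiti lines dip at the medium dose and lie higher again at the high dose, and most Yijung lines turn up between the medium and high dose.

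The cholesterol genes that share SREBP regulation with the members were counted beside them. Of 14 genes of cholesterol synthesis and uptake, 11 were called higher at Yijung high and none lower, with a median log2 fold change of 1.03 against 0 over all tested genes, and the median of the 10 members was 0.63. DHCR7, a late sterol enzyme, rose by 1.20 ± 0.12, and FDFT1, which makes squalene, by 1.16 ± 0.07. Of the 6 SREBP processing genes, INSIG1 rose by 1.21 ± 0.11 and SREBF2 by 0.68 ± 0.10, with 0 of 6 lower. Among 9 genes of glycerolipid synthesis and storage, LPIN1, PNPLA3 and PLIN2 were called higher, LPIN1 at 98.6 CPM against 55.2 CPM in vehicle. Of 22 tested partners in fatty acid supply, elongation and activation, only IDH1 (0.49 ± 0.10), an NADPH source, and HSD17B12 (0.34 ± 0.08), of the elongation cycle, were called. The 8 epithelial markers summed to 4405 to 4640 CPM at Yijung high, against 6066 to 6334 CPM in vehicle, with 0 of the 5 tested markers called, and their part in the result was not tested.

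Coptidis at 110 µg/mL lowered the transcription factor, the synthase and both branches of desaturation, with 6 of 10 members called lower and none higher, where 6.14% of all tested genes were called lower. FADS2 and SCD fell furthest, each to 0.53 times its vehicle level, and the carbon supply genes gave smaller values. Without the 4 libraries 7 members were called lower, the further one being ACLY, where 13.3% of all genes were.

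SREBF1 stood at 119 and 120.2 CPM in the Coptidis high libraries, against 157, 159 and 158 CPM in vehicle, and fell by 0.40 ± 0.08 on the log2 scale (adjusted p = 0.000347). These were the lowest SREBF1 values of any group. FASN had 347 and 359 CPM, against 551, 532 and 509 CPM in vehicle, a log2 fold change of -0.59 ± 0.13 (adjusted p = 0.00178). The FASN call was lost without Coptidis high replicate 2, and the SREBF1 call was lost when genes of low counts were kept in the fit.

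FADS2 had 210.2 and 215 CPM in the Coptidis high libraries, against 417, 390.1 and 398 CPM in vehicle, a log2 fold change of -0.92 ± 0.08 (adjusted p = 7.53e-12). SCD had 483 and 486 CPM with the extract, against 936, 921 and 868 CPM in vehicle, a log2 fold change of -0.91 ± 0.20 (adjusted p = 0.0013). The 2 desaturases had nearly equal fold changes, and every extract library lay below every vehicle library. FADS1 fell less, to 219 and 222 CPM, against 319, 304 and 296 CPM in vehicle, a log2 fold change of -0.47 ± 0.08 (adjusted p = 1.9e-05). ELOVL5 had 101.4 and 109 CPM, against 159, 163 and 154 CPM in vehicle, a log2 fold change of -0.59 ± 0.17 (adjusted p = 0.0163), a call lost without vehicle replicate 2 or either extract library.

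ELOVL6 was the member with the smallest difference, with 31.9 ± 0.99 CPM at Coptidis high against 33.3 ± 1.91 CPM in vehicle, a log2 fold change of -0.06 ± 0.13 (adjusted p = 0.832). ACLY averaged 613 CPM against 744 CPM in vehicle, a log2 fold change of -0.28 ± 0.16 (adjusted p = 0.295, and 0.000169 without the 4 libraries). ACACA had a log2 fold change of -0.22 ± 0.18 and ACSS2 one of -0.18 ± 0.09, neither called. At this dose ELOVL5 was called lower and ELOVL6 was not, and the difference between them was not tested.

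FADS2 followed the Coptidis dose closely, with 402 CPM in vehicle, 350.0 at the low dose, 286 at the medium and 213 CPM at the high dose. SCD ran through 908, 781, 670.3 and 484 CPM, and FASN through 531, 447, 439 and 353 CPM. SREBF1, at 158, 163, 155 and 119 CPM, stayed near vehicle until the high dose. At the medium dose FADS2 was the member called, at 285 and 287 CPM against 417, 390.1 and 398 CPM in vehicle (log2 fold change -0.49 ± 0.07, adjusted p = 2.63e-05), where 1.51% of all genes were called lower. The low dose had no called member with edgeR, where 0.447% of all genes were called, 1 member at an unadjusted p below 0.05 and 0 with DESeq2. The medium dose had 6 members called lower without the 4 libraries, where 5.89% of all genes were, and the low dose 1, FASN, where 1.78% were.

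Against its own low dose, Coptidis high had 3 members called lower, where 1.38% of genes were called lower. FADS2 averaged 213 CPM at the high dose against 350.0 CPM at the low dose (log2 fold change -0.72 ± 0.08, adjusted p = 1.43e-07). SREBF1 had a log2 fold change of -0.45 ± 0.09 (adjusted p = 0.00152) and FADS1 one of -0.34 ± 0.08 (adjusted p = 0.017), and both calls were lost in several refits without a library. Against Zizyphi high, whose library codes share a first number with Coptidis, the members called lower were 6, where 4.02% of genes were called lower: FADS2 (-0.93 ± 0.08), SCD (-0.94 ± 0.21), ELOVL5 (-0.63 ± 0.19), FASN (-0.58 ± 0.14), FADS1 (-0.49 ± 0.08) and SREBF1 (-0.40 ± 0.09). Neither of these comparisons uses the vehicle. Against Zizyphi high, fewer than 6 members were called in the refits without 1 library. Among all calls of 1 extract against another, 1 of 11 was kept in every alternative.

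In the cholesterol list 11 of 14 genes were called lower at Coptidis high and none higher, with a median log2 fold change of -0.81 against -0.01 over all tested genes, and the median of the 10 members was -0.44. IDI1, which makes the activated isoprene unit, fell by 1.09 ± 0.11, and DHCR7 by 0.94 ± 0.13. Among the SREBP processing genes INSIG1 (-1.37 ± 0.13), SREBF2 (-0.56 ± 0.11) and SCAP (-0.36 ± 0.07) were called lower. Of 8 LXR genes, 2 were called higher, the sterol exporters ABCG1 (1.92 ± 0.30) and ABCA1 (0.88 ± 0.28). DGAT2, which closes triglyceride synthesis, rose by 1.10 ± 0.22 and PLIN2, a lipid droplet coat, by 0.52 ± 0.13, while LPIN1 fell by 0.48 ± 0.09. The 22 tested partners split, with HACD3, HACD2 and ACSL3 lower and IDH1, MID1IP1 and FADS3 higher. FADS3, the third gene of the desaturase cluster, stood at 26.2 ± 0.30 CPM against 18.8 ± 0.91 CPM in vehicle, opposite in direction to FADS1 and FADS2.

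Of 5 tested epithelial markers 2 were called lower at Coptidis high, KRT8 by 0.82 ± 0.26 and KRT18 by 0.75 ± 0.21, and 2 of the 5 had a positive fold change. The 8 markers summed to 3611 to 3619 CPM, against 6066 to 6334 CPM in vehicle, of which KRT8 and KRT18 gave nearly all. Mitochondrial ribosomal RNA made up 6.09 to 6.42% of the Coptidis high counts, against 2.24 to 2.43% in vehicle. It was higher still at the medium dose, 10.3 to 11.1%, and at the low dose, 9.13 to 9.36%, where 1 and 0 members were called. The part of either in the members' result was not tested.

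**Figure D3:**
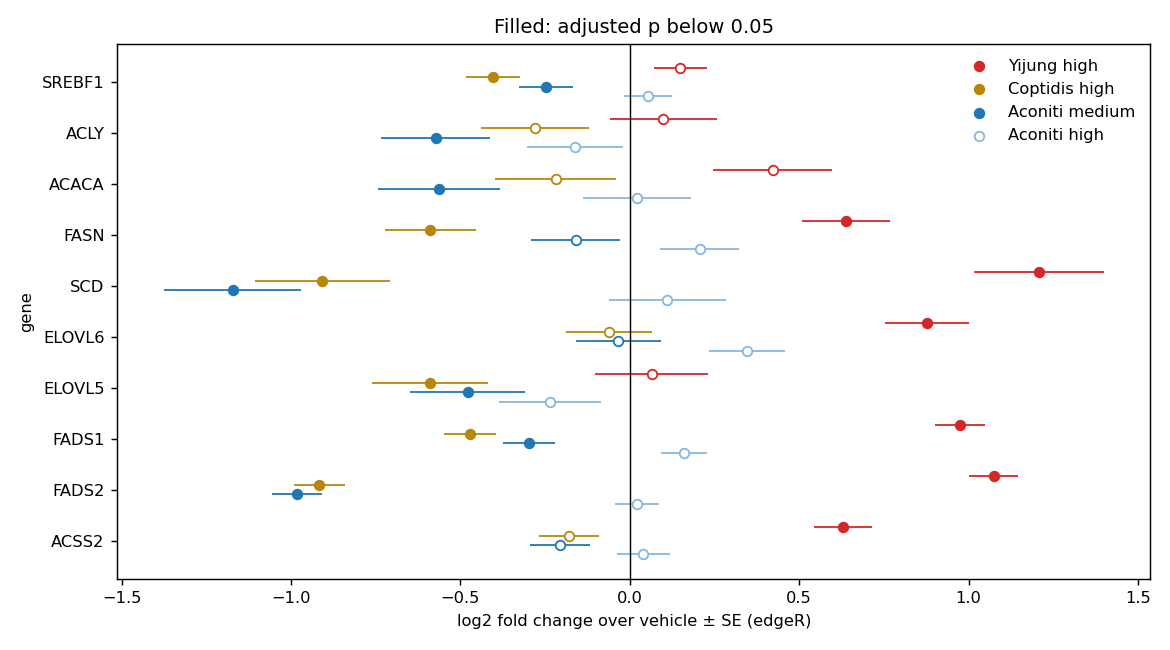
Fitted log2 fold change over vehicle with its SE (x) for the 10 genes (y) at Yijung high, Coptidis high, Aconiti medium and Aconiti high; filled points passed an adjusted p of 0.05. The desaturases SCD and FADS2 lie near -1 at Coptidis high and Aconiti medium and above 1 at Yijung high, and no Aconiti high point is filled.

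Aconiti at 100 µg/mL, the medium dose, lowered 7 of 10 members and raised none, where 9.28% of all tested genes were called lower. SCD and FADS2 fell furthest, and ACLY and ACACA, which feed FASN, fell here while FASN was not called. The 2 libraries of this dose stand apart from both other doses of the extract, and the labels were taken as given. Without the 4 libraries the count was again 7, where 16.4% of all genes were called lower.

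SCD had 394 and 411 CPM in the Aconiti medium libraries, against 936, 921 and 868 CPM in vehicle, a log2 fold change of -1.17 ± 0.20 (adjusted p = 2.83e-05). FADS2 had 204 and 202 CPM, against 417, 390.1 and 398 CPM in vehicle, a log2 fold change of -0.98 ± 0.08 (adjusted p = 1.16e-12). These 2 calls were kept in every alternative run. FADS1 fell less, to 244 and 254 CPM, against 319, 304 and 296 CPM in vehicle, a log2 fold change of -0.30 ± 0.08 (adjusted p = 0.00392), a call lost without Aconiti medium replicate 1 and when genes of low counts were kept.

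The genes that supply carbon came next. ACLY had 493 and 507 CPM in the Aconiti medium libraries, against 757, 756 and 719 CPM in vehicle, a log2 fold change of -0.57 ± 0.16 (adjusted p = 0.0089). ACACA had 148 and 161 CPM, against 240.4, 234 and 210.3 CPM in vehicle, a log2 fold change of -0.56 ± 0.18 (adjusted p = 0.0247). Both lay below every vehicle library. SREBF1 had 130.4 and 136 CPM, against 157, 159 and 158 CPM in vehicle, a log2 fold change of -0.25 ± 0.08 (adjusted p = 0.0242), and ELOVL5 averaged 114 ± 1.07 CPM against 159 ± 4.63 CPM in vehicle, a log2 fold change of -0.48 ± 0.17 (adjusted p = 0.0455). The calls of ACLY, ACACA, SREBF1 and ELOVL5 were each lost in 2 to 6 of the 11 alternatives, among them both refits without an extract library.

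FASN averaged 475 CPM at Aconiti medium against 531 CPM in vehicle, a log2 fold change of -0.16 ± 0.13 (adjusted p = 0.484). ELOVL6, at 32.6 against 33.3 CPM in vehicle, had a log2 fold change of -0.03 ± 0.13, and ACSS2, at 15.1 against 17.4 CPM, one of -0.21 ± 0.09. None of these 3 was called, and the libraries of ELOVL6 overlapped.

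The high dose of Aconiti, 500 µg/mL, gave other values. No member was called with edgeR at Aconiti high, where 4.65% of all genes were called, although 2 members had an unadjusted p below 0.05 and DESeq2 called 1. SCD had 977, 936 and 1030.0 CPM at the high dose and FADS2 408, 408 and 407 CPM, close to vehicle. At the low dose, where 0% of genes were called, no member was called with edgeR, 4 had an unadjusted p below 0.05 and DESeq2 called 2. SREBF1 averaged 196 ± 12.2 CPM there against 158 ± 1.13 CPM in vehicle, a log2 fold change of 0.31 ± 0.07 (adjusted p = 0.281, and 0.00314 without the 4 libraries), and its 204 CPM was the highest of any library. Without the 4 libraries the high dose had 4 called members, where 14.7% of all genes were called, and the low dose 4, where 2.07% were, with ELOVL6 (adjusted p = 1.64e-05) and FASN (0.0139) higher and ACLY (0.016) and ELOVL5 (0.00111) lower at the high dose.

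The medium dose was tested directly against the high dose, a comparison that was set up because earlier results of these data had shown the medium dose apart. There, 5 members were called lower, where 4.64% of genes were called lower. SCD averaged 403 ± 12.1 CPM at the medium dose against 981 ± 47.1 CPM at the high dose (log2 fold change -1.28 ± 0.20, adjusted p = 2.46e-05). FADS2 averaged 203 ± 1.32 CPM against 407 ± 0.31 CPM (-1.003 ± 0.08, adjusted p = 9.06e-12), and FADS1 249 ± 7.33 CPM against 342 ± 15.2 CPM (-0.46 ± 0.08, adjusted p = 5.85e-05). These 3 were kept in all 12 alternatives, whereas ACACA (-0.58 ± 0.18, adjusted p = 0.0368) and SREBF1 (-0.30 ± 0.08, adjusted p = 0.0116) were lost in 5 and 4. Against the low dose, Aconiti high had SREBF1 (-0.26 ± 0.07, adjusted p = 0.0238) and FADS2 (-0.24 ± 0.07, adjusted p = 0.0309) lower, where 1.72% of genes were called lower, and both calls were lost in 5 or 6 of 13 alternatives.

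Of the 14 cholesterol genes, 10 were called lower at Aconiti medium and none higher, with a median log2 fold change of -0.65 against -0.01 over all tested genes, and the median of the 10 members was -0.39. LSS, which closes the sterol rings, fell by 0.93 ± 0.10, and INSIG1 of the SREBP processing genes by 0.80 ± 0.12. The supply partners SLC25A1, the citrate carrier (-0.60 ± 0.16), ME1 (-0.54 ± 0.10) and IDH1 (-0.51 ± 0.10), both NADPH sources, fell with ACLY, as did the elongation cycle genes HACD2 and HACD1, and MID1IP1, an activator of acetyl-CoA carboxylase, rose by 0.49 ± 0.10. In all, 5 of 22 tested partners were lower and 1 higher. DGAT2 (1.13 ± 0.22) and PLIN2 (0.90 ± 0.13) were higher. Of 12 fatty acid oxidation genes, 4 were called lower, HADHA, HADHB, ACAA2 and SLC25A20, and PDK4 was higher, so lower values were not limited to synthesis. Of the 8 LXR genes, 2 were called higher, the receptor NR1H2 (0.58 ± 0.15) and ABCG1, at 0.899 against 0.447 CPM in vehicle. The 2 called lower were MYLIP (-0.50 ± 0.13), a ubiquitin ligase, and LPCAT3 (-0.95 ± 0.15), which loads polyunsaturated chains into phospholipid.

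Epithelial markers moved with the same libraries. At Aconiti medium 3 of 5 tested markers were called lower, CDH1 by 2.54 ± 0.28, EPCAM by 0.82 ± 0.22 and KRT18 by 0.65 ± 0.21, and the 8 together summed to 3981 to 4225 CPM against 6066 to 6334 CPM in vehicle. COL1A1 fell by 2.95 ± 0.31. CDH1 and COL1A1 were also lower at Aconiti high, by 0.80 ± 0.22 and 0.98 ± 0.24, where no member was called. The part of these changes in the members' result was not tested.

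**Figure D4:**
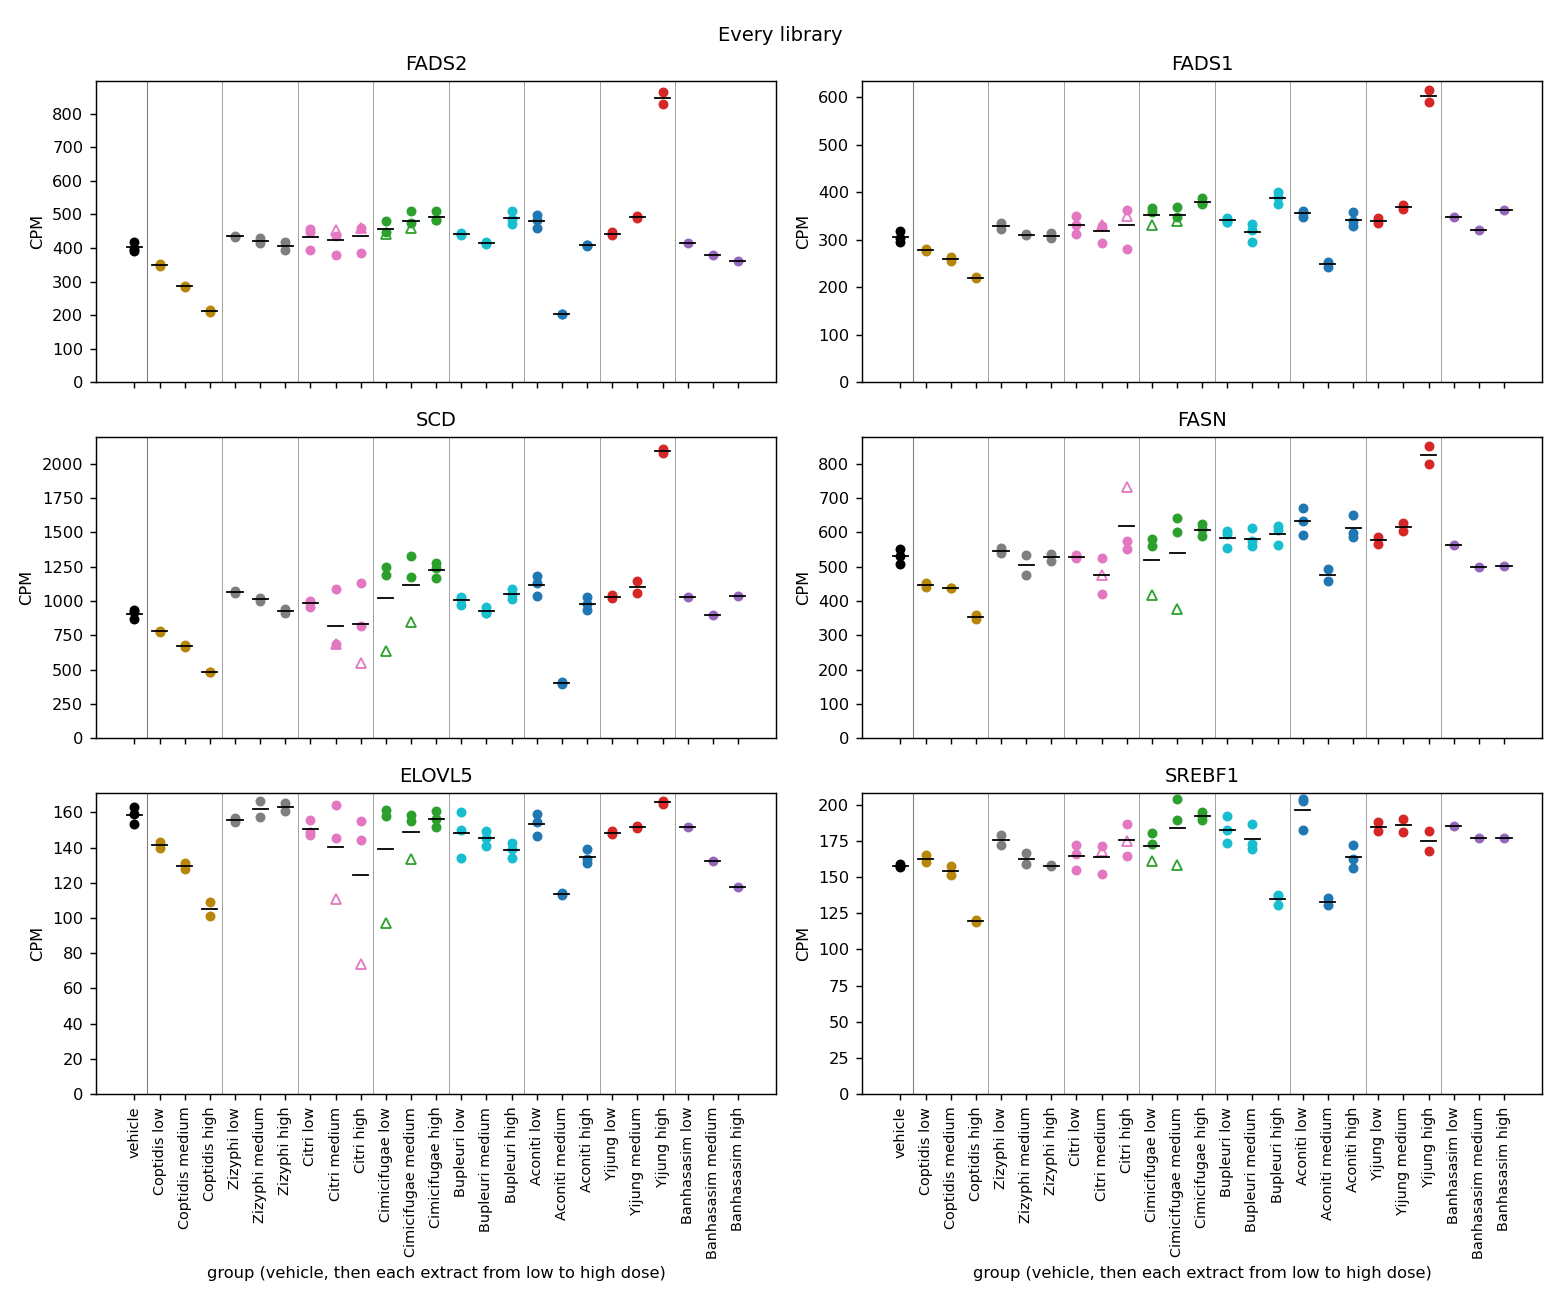
CPM (y) of FADS2, FADS1, SCD, FASN, ELOVL5 and SREBF1 in all 59 libraries by group (x), with the group mean as a bar and the 4 libraries of high antisense counts as open triangles. FADS2 and FADS1 libraries sit tightly around their means, whereas SCD, FASN and ELOVL5 spread within Citri and Cimicifugae groups, where the open triangles lie. For SCD at Citri high and Citri medium the filled points spread as well.

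Bupleuri at 190 µg/mL raised FADS1 and FADS2, with 2 of 10 members called higher, where 2.05% of all genes were called higher. FADS1 had 389.8, 376 and 400.3 CPM, against 319, 304 and 296 CPM in vehicle, a log2 fold change of 0.34 ± 0.07 (adjusted p = 0.00129). FADS2 had 509, 472 and 486 CPM, against 417, 390.1 and 398 CPM in vehicle, a log2 fold change of 0.28 ± 0.07 (adjusted p = 0.00705). Every extract library lay above every vehicle library for both genes, and both calls were lost only when genes of low counts were kept. At the medium and low doses the log2 ratios of the means to vehicle were 0.05 and 0.15 for FADS1. They were 0.05 and 0.14 for FADS2, and none was called with all libraries kept. ELOVL6 averaged 43.1 CPM against 33.3 CPM in vehicle, a log2 fold change of 0.37 ± 0.11 (adjusted p = 0.0583, and 7.91e-06 without the 4 libraries). Without the 4 libraries 5 members were called, ELOVL6, FADS1 and FADS2 higher and SREBF1 and ELOVL5 lower, where 14.1% of all genes were called.

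SREBF1 went the other way in Bupleuri. It had 138, 137 and 130.5 CPM at the high dose, against 183, 192 and 174 CPM at the low dose, a log2 fold change of -0.44 ± 0.07 (adjusted p = 8.83e-05), and it was the 1 member called, where 0.56% of genes were called lower. Against vehicle the value at the high dose was -0.23 ± 0.07 (adjusted p = 0.068), not called, with all 3 libraries below all vehicle libraries. Against Aconiti high, whose library codes share a first number with Bupleuri, SREBF1 was lower (-0.28 ± 0.07, adjusted p = 0.0273) and FADS2 higher (0.26 ± 0.07, adjusted p = 0.0233), where 1.33% of genes were called in either direction, and both calls were lost in 6 of 13 alternatives. Of the 14 cholesterol genes 6 were called higher at Bupleuri high, among them DHCR7 (0.49 ± 0.11) and LSS (0.47 ± 0.08), and the list's median log2 fold change was 0.29 against 0.00 over all tested genes, while the median of the 10 members was 0.14. SREBF2 rose by 0.35 ± 0.09 and INSIG1 by 0.37 ± 0.10, beside the uncalled lower value of SREBF1. PLIN2 (0.90 ± 0.11) and CPT1A (0.48 ± 0.09), the gate of mitochondrial fatty acid oxidation, were higher. KRT18 was lower by 0.68 ± 0.18, and the 8 epithelial markers summed to 4043 to 4262 CPM against 6066 to 6334 CPM in vehicle, and their part was not tested. The medium and low doses of Bupleuri had no called member with edgeR, where 0.00539% and 0% of genes were called, 1 and 3 members at an unadjusted p below 0.05 and 0 with DESeq2 at either dose.

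Cimicifugae at 500 µg/mL raised FADS1 and FADS2, 2 of 10 members, where 0.151% of all genes were called higher. FADS1 had 376, 375 and 389 CPM, against 319, 304 and 296 CPM in vehicle (log2 fold change 0.31 ± 0.07, adjusted p = 0.0192). FADS2 had 484, 511 and 485 CPM, against 417, 390.1 and 398 CPM in vehicle (0.30 ± 0.07, adjusted p = 0.0223). Each call was lost in 7 of 12 alternatives, among them every refit without an extract library. At the medium and low doses the log2 ratios of the means to vehicle were 0.20 and 0.20 for FADS1. They were 0.26 and 0.18 for FADS2, and none was called with all libraries kept. SCD, at 1278, 1166 and 1240.5 CPM, lay above every vehicle library, with a log2 fold change of 0.44 ± 0.17 (adjusted p = 0.49, and 0.00389 without the 4 libraries). ELOVL6 averaged 44.5 CPM against 33.3 CPM in vehicle (0.42 ± 0.11, adjusted p = 0.11, and 4.48e-06 without the 4), and SREBF1 192 CPM against 158 CPM (0.28 ± 0.07, adjusted p = 0.0623, and 0.0013 without the 4). The count of called members was 5 without the 4 libraries, where 3.68% of all genes were called, none of which is a Cimicifugae high or vehicle library. No gene of the cholesterol list was called, and its median log2 fold change was 0.08 against 0.00 over all tested genes, beside 0.29 for the members. The 8 epithelial markers summed to 4092 to 4530 CPM against 6066 to 6334 CPM in vehicle, with 0 of 5 tested called.

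At the medium and low doses of Cimicifugae, and at its high dose against its low dose, no member was called with edgeR, where 0.0269%, 0% and 0.221% of genes were called. An unadjusted p below 0.05 was reached by 4, 2 and 2 members, and DESeq2 called 1, 0 and 0. Single libraries weighed here. SCD had 1246, 637 and 1188 CPM at the low dose and 1330, 848 and 1176 CPM at the medium dose, and the low value of each triplet was a library of high antisense counts. At Cimicifugae medium 6 members were called higher without the 4 libraries, where 1.78% of all genes were, and at Cimicifugae low 0, where 0.0215% were.

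Citri gave no called member against vehicle at any dose with edgeR or DESeq2. The share of all genes called was 4.42% at Citri high, 0% at Citri medium and 0.00539% at Citri low, and 2, 0 and 0 members had an unadjusted p below 0.05. The libraries of 1 group disagreed with each other at the high dose: SCD had 1130.1, 817 and 549.1 CPM, ACLY 790, 707 and 388 CPM, and ELOVL5 155, 145 and 73.7 CPM. The lowest value of each was replicate 3, a library of high antisense counts, which also had the highest FASN of the group, 732 CPM beside 575 and 550.4 CPM. FADS2 was steadier, at 458, 385 and 461 CPM. Citri high against Citri low had 0 called members, where 3.54% of genes were called, with 0 at an unadjusted p below 0.05 and 0 with DESeq2.

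Against Cimicifugae high, Citri high had 3 members called lower, where 1.41% of genes were called lower. ELOVL6 averaged 31.0 ± 8.53 CPM against 44.5 ± 1.48 CPM (log2 fold change -0.52 ± 0.11, adjusted p = 0.0101), SCD 832 ± 291 CPM against 1228 ± 57.1 CPM (-0.56 ± 0.17, adjusted p = 0.0428) and ACACA 198 ± 35.8 CPM against 279 ± 16.995 CPM (-0.49 ± 0.16, adjusted p = 0.0486). All 3 calls were lost without Citri high replicate 3 and in a fit of only the Citri and Cimicifugae libraries. That replicate is among the 4 libraries of high antisense counts. Leaving out all 4 lost 1 of the 51 calls over all comparisons, so these 3 calls were not all lost there. In that setting 0.846% of genes were called lower for Citri high against Cimicifugae high. The Citri high and Cimicifugae high libraries did not overlap for these genes.

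Zizyphi had no called member at any dose with edgeR or DESeq2, and none at an unadjusted p below 0.05. The share of all genes called was 0% at the high, the medium and the low dose, and 0% for the high against the low dose. At Zizyphi high, SCD had 941 and 916 CPM against 936, 921 and 868 CPM in vehicle, and FADS2 394 and 418 CPM against 417, 390.1 and 398 CPM in vehicle. The levels of both overlapped those of vehicle.

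Banhasasim had 1 library per dose, so its values are given with no test. No member was 1.5-fold from the vehicle mean at any dose, where 21.9% of all tested genes were at the high dose, 14.3% at the medium and 13.1% at the low. These shares take in tested genes of any level, and shares at the members' levels were not counted. ELOVL5 was furthest below at the medium and high doses, and ACSS2 at the low dose, at 0.915 times its vehicle mean. From the low to the high dose ELOVL5 stood at 152, 132 and 117 CPM, the last 0.741 times the vehicle mean of 159 CPM. FADS1 was at 363 CPM at the high dose, 1.19 times the vehicle mean, and FADS2 at 360 CPM, 0.896 times, so the pair lay on either side of vehicle. Mitochondrial ribosomal RNA made up 15.2% of the counts at the high dose, and its part was not tested.

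Across the 25 group means, SCD and FADS2 varied most among the members. The SD of the group means on the log2 scale was 0.44 for SCD, 0.40 for FADS2, 0.26 for FADS1 and 0.23 for FASN, and it was lowest for ACLY, at 0.15. Libraries of 1 group differed far less for FADS2 (SD 0.07 on the log2 scale) and FADS1 (0.07) than for SCD (0.22), ACACA (0.21), ELOVL5 (0.20) and ACLY (0.18). Much of the spread within groups came with the 4 libraries of high antisense counts: without them it was 0.05 for ACLY, 0.12 for ACACA, 0.06 for ELOVL5 and 0.12 for SCD, beside 0.06 for FADS2 and 0.07 for FADS1. The SD of the group means was then 0.14 for ACLY, 0.20 for ACACA and 0.17 for ELOVL5.

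As a description over the 25 group means, which share libraries, depth and scaling, the closest pair of members was SCD and FADS2 (Pearson r = 0.956) and the next FADS1 and FADS2 (r = 0.924). The lowest pairs were SREBF1 with ACSS2 (0.291) and with ELOVL6 (0.293), while the highest value of SREBF1 was 0.676, with SCD. Among 10789 genes, those much like SCD were SREBF2 (r = 0.948) and STARD4 (0.939), a sterol carrier. Most like FADS1 were SREBF2 (0.946), DHCR7 (0.945) and INSIG1 (0.936), and much like FASN were DHCR7 (0.872) and SREBF2 (0.868). The genes most like SREBF1 were ADRA1D (0.818), PLCXD1 (0.786) and ZNF703 (0.771), none of them in the lists of lipid genes used here.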

How the data were processed

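RNA of A549 cells was sequenced from 59 libraries in 25 groups, with a directional mRNA kit and 100 bp paired reads, per the labels. The authors deposited unscaled expected counts. The submitters' processing notes name RSEM 1.3.3, STAR 2.7.3a, Trim Galore 0.6.5 and FastQC 0.11.9, with hg38 (GRCh38) as the build. No source used here gives the annotation release or the strand setting. The table's other 210 sample columns were not used. Names and positions are those of GENCODE 29, which held 94% of the IDs.

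Expected counts were rounded to whole numbers, scaled by TMM and filtered (filterByExpr, minimum count 10, minimum total 15), leaving 18568 genes. One edgeR 4.0.16 quasi-likelihood fit in R 4.3.3 held all 25 group means (34 residual and 4.64 prior degrees of freedom). There were 32 comparisons: 21 doses against vehicle, 7 high against low doses, Aconiti medium against high, and 3 extracts against an extract whose library codes share a first number. The labels do not explain these numbers, and the vehicle has a code of its own, so a code set and an effect shared by its extracts cannot be told apart against vehicle. P-values were adjusted by Benjamini-Hochberg within each comparison, and calls needed an adjusted p below 0.05. The SE is the absolute log2 fold change over the square root of F. Nothing in the labels says that replicates were separate cultures, so p-values measure only the spread between these libraries. Counts were also simulated for 1 comparison, Coptidis high against vehicle, with the changed genes drawn at random from all tested genes. There, 15 of 100 genes changed 1.5-fold and 66 of 100 changed 2-fold were called.

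The members and gene lists, and the comparison of 2 Aconiti doses, were chosen with earlier results of these data known. All 10 members are named, other list genes where called, and the 3 genes most like SREBF1, FASN, SCD and FADS1; some genes that this rule names are not reported here. Only between Citri high and Citri low did every pair of same-numbered replicates deviate together at r above 0.1 (0.122 to 0.235 over 3 pairs). There, 0 members were called with or without the block. Single pairs passed this limit elsewhere. Cimicifugae high and low had r of 0.264 and 0.245 for replicates 1 and 2 and 0.004 for replicate 3. Alternatives were DESeq2 1.42.0, its size factors in edgeR, no filter on low counts, a fit of only the libraries of the extracts compared (with vehicle where it is compared), a replicate block, leaving out each library (keeping the dispersion trend of all 59) and leaving out the 4 libraries of high antisense counts.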

Additional observations from a re-analysis of the deposited data

How the results depend on the processing

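No member changed direction past the threshold in any alternative, and 20 of the 51 calls were kept in every alternative run. DESeq2 and its size factors in edgeR kept all 51 calls, keeping genes of low counts lost 17, the fit of only the libraries compared lost 5, and leaving out the 4 libraries of high antisense counts, chosen after seeing the data, lost 1 and gained 49 of 269. The cause of these changes was not tested. SCD, FADS1, FADS2, ELOVL6 and ACSS2 at Yijung high, SCD, FADS1 and FADS2 at Coptidis high, FADS2 at Coptidis medium, and SCD and FADS2 at Aconiti medium kept their calls against vehicle in every alternative. In the simulation of Coptidis high against vehicle, over tested genes of any level, changes of 1.5-fold were mostly missed. Sensitivity for the members or for groups of 3 libraries was not simulated, and some calls above were of smaller changes.

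Numbers below are members called. Except for those without the 4 libraries, they stand without the share of all genes called in that setting. They therefore describe the settings and are not results about the members. DESeq2 gave 2 at Coptidis medium, 4 at Cimicifugae high, 1 at Cimicifugae medium, 4 at Bupleuri high, 1 at Aconiti high, 2 at Aconiti low, 1 at Yijung medium (each against vehicle) and 5 for Citri high against Cimicifugae high. Keeping genes of low counts gave 0 for Cimicifugae high and Bupleuri high against vehicle, Bupleuri high against low, Aconiti high against low, and Bupleuri high against Aconiti high. The fit of only the libraries of the extracts compared called more genes overall in 21 of 32 comparisons (4206 against 429 for Coptidis high against low) and fewer in 7, so its counts of members are not on the same footing. It gave, against vehicle, 6 at Coptidis medium, 5 at Coptidis low, 0 at Cimicifugae high, 7, 1 and 5 at Bupleuri high, medium and low, 5 at Aconiti high, 5 at Aconiti low, 4 at Yijung medium and 1 at Yijung low. It gave 8, 5 and 4 for high against low in Coptidis, Bupleuri and Aconiti, 10 for Aconiti medium against high, and 0 for Citri against Cimicifugae. Without the 4 libraries more genes were called in 27 of the 32 comparisons. The counts of members follow, each with the share of all genes called in either direction. Against vehicle they were 6 at Coptidis medium (12.1%), 1 at Coptidis low (3.46%), 5 at Cimicifugae high (3.68%) and 6 at Cimicifugae medium (4.18%). Bupleuri gave 5 at the high dose (14.1%) and 2 at the low dose (2.71%). Aconiti gave 4 at the high dose (14.7%) and 4 at the low dose (2.07%), and Yijung 1 at the medium dose (0.162%). High against low gave 7 in Coptidis (8.85%), 3 in Bupleuri (5.42%) and 5 in Aconiti (9.55%), with 10 for Aconiti medium against high (19.8%).

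With the replicate number as a block, all 51 calls were kept and 3 were gained. In comparisons other than Citri high against low, same-numbered libraries did not all deviate together. The replicate block in a fit of only the libraries compared gave 8, 5 and 4 members for high against low in Coptidis, Bupleuri and Aconiti, 9 for Aconiti medium against high and 0 for Citri high against Cimicifugae high.

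Leaving out 1 library at a time gave, against vehicle, 4 to 6 at Coptidis high, 5 to 6 at Yijung high, 2 to 5 at Aconiti medium, 0 to 2 at Cimicifugae high, 0 to 1 at Cimicifugae medium, 0 to 4 at Citri high and 0 to 1 at Citri medium. High against low gave 1 to 2 in Coptidis, 0 to 2 in Aconiti, 4 to 4 in Yijung and 0 to 4 in Citri. Aconiti medium against high gave 3 to 4, Coptidis against Zizyphi 3 to 5, Citri against Cimicifugae 0 to 7 and Bupleuri against Aconiti 0 to 1.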
